A study of Mus musculus with 4 samples.

Results

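The Hox genes of the 4 mammalian clusters were followed on 4 microarrays of mouse embryonic fibroblasts (MEFs). The members are all probes for transcripts, leaving out the control spots of the array, that the array design names Hoxa, Hoxb, Hoxc or Hoxd with a number. There were 44 such probes for 39 genes, among 39429 probes with 31829 gene names. The study cultured MEFs of C57BL/6J embryos in DMEM with inactivated fetal bovine serum and took total RNA in the logarithmic growth phase. Each of 4 genotype labels has 1 array. The DKO array is labelled CycG1-/-CycG2-/-, for MEFs with both cyclin G genes knocked out, and the WT_of_DKO array holds its CycG1+/+CycG2+/+ control. The G2KO array is labelled CycG2-/- and its control, WT_of_G2KO, is labelled CycG2+/+. The embryos were at mid-gestation, and the labels name no treatment. The parts of the embryo that went into each culture are not given in the sources used here. With 1 array for each genotype there is no spread between cultures, and so no p-value is given anywhere. Genotype and culture cannot be told apart.

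Each value below is a level, which is the background-corrected Cy3 signal of a probe divided by the 75th percentile of all spots that are not controls on its array. Its error is that of the Agilent error model, which lay between 10% and 21.5% of the signal for Hox probes above background and covers spots and scanning only. A probe counts as above background where the Agilent software flags it as well above background. Differences are given as folds of the same probe between 2 arrays, since probes differ in efficiency and levels of 2 genes cannot be set against each other. Where a probe was not well above background on 1 array, the fold is a limit, taken against the dimmest well-measured signal of that array or the probe's own if brighter, and is written as "at least". Of the 115 Hox values that were not well above background, 80 were surrogate signals that the software had put in place of a measured one.

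Several checks bear on the labels. The probe of Ccng1, the gene for cyclin G1, was at a level of 1.66 on WT_of_DKO and was not well above background on DKO. The probe of Ccng2, the gene for cyclin G2, read 0.0619 on DKO, 0.0806 on WT_of_DKO, 0.091 on G2KO and 0.104 on WT_of_G2KO, and so does not separate knockout from control. Xist, the RNA of the inactive X chromosome, passed the background flag only on the array labelled WT_of_G2KO, and Ddx3y, Uty and Eif2s3y of the Y chromosome passed it only on the other 3. The study's own account gives the opposite direction for the comparison labelled G2KO, so directions within that pair are those of the labels and would turn if the labels were exchanged. Over all probes well above background on both, the SD of the log2 ratio was 0.57 between G2KO and WT_of_DKO and ranged from 0.887 to 1.16 in the other 5 pairs.

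Hox genes encode transcription factors with a DNA-binding homeodomain and stand in 4 clusters, each on its own chromosome. Within a cluster the genes are numbered by paralogue group, and group 1 lies at the end that is switched on first and furthest forward along the body axis, while group 13 lies at the end that is switched on last and furthest back. Cells of different body regions therefore carry different sets of Hox transcripts, and fibroblasts keep such sets in culture. Polycomb proteins hold silent Hox genes off, and Pbx and Meis proteins bind DNA together with Hox proteins.

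On the DKO array, Hox transcripts were above background across most of the clusters, whereas on the other 3 arrays they were limited to a few genes, mostly of the Hoxa cluster. The DKO array had 31 of the 44 Hox probes above background, against 72.2% of all probes on that array. WT_of_DKO had 9, where the share over all probes was 65%. G2KO also had 9, beside 68.1%, and WT_of_G2KO had 12, beside 68.5%. In genes, this made 27 of 39 on DKO, 8 on WT_of_DKO, 8 on G2KO and 11 on WT_of_G2KO. The Hox share on DKO was thus near that of all probes, and the shares on the other arrays, 20.5%, 20.5% and 27.3%, were under it. In bulk RNA, fewer cells with a transcript and less transcript in each cell cannot be told apart. The software's weaker flag, a signal significantly over background, was set for 38 Hox probes on DKO, 15 on WT_of_DKO, 17 on G2KO and 26 on WT_of_G2KO.

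A total of 20 Hox probes, of 19 genes, were above background on the DKO array alone. That is 45.5% of the Hox probes, where 4.42% of all probes had this pattern. Some of the 19 genes, such as Hoxb3, also had another probe that was above background on all 4 arrays. A further 9 probes, among them those of Hoxa4, Hoxa6, Hoxa7, Hoxa9, Hoxb6 and Hoxc12, were above background on all 4 arrays, a pattern that 61.4% of all probes had. Hoxa3 and Hoxa5 were above background on DKO and WT_of_G2KO, and Hoxc13 on WT_of_G2KO alone. The remaining 12 probes, of Hoxa10, Hoxa11, Hoxb1, Hoxb13, Hoxc4, Hoxc11, Hoxd1, Hoxd10, Hoxd11, Hoxd12 and Hoxd13, were not well above background on any array, beside 23% of all probes.

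**Figure D1:**
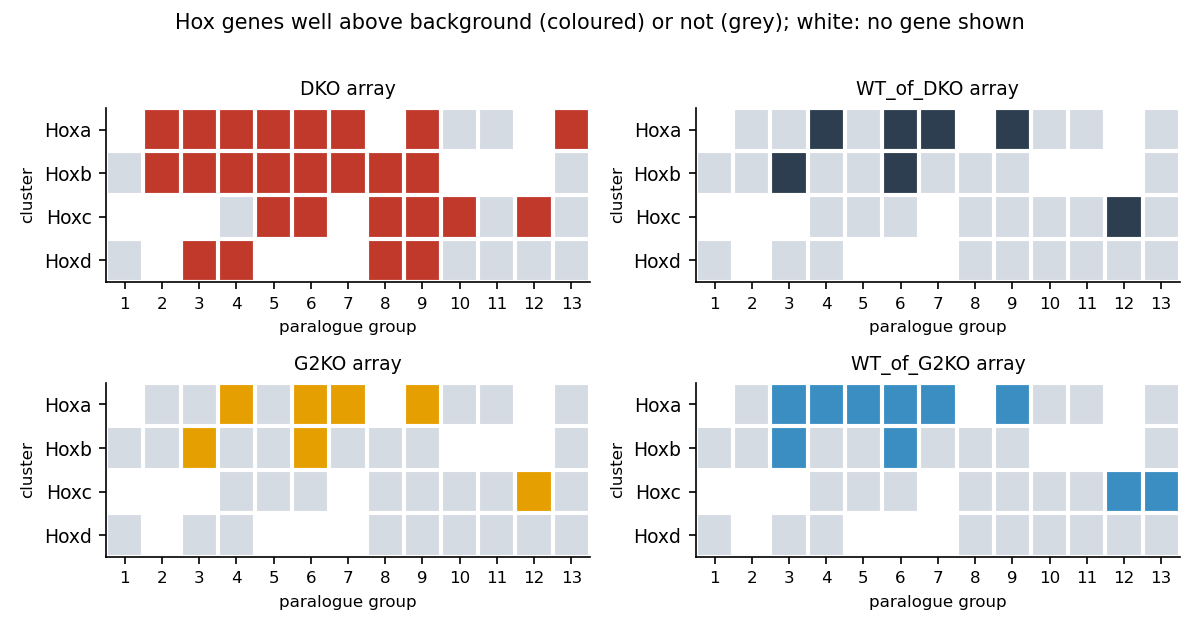
Each square is a Hox gene, by cluster (vertical axis) and paralogue group (horizontal axis, no unit), on each of the 4 arrays; coloured squares have at least 1 probe well above background, grey squares have none and white squares have no gene shown. On DKO the coloured squares fill groups 2 to 9 apart from Hoxc4, whereas on the other arrays few squares are coloured and none of them in Hoxd.

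Set against WT_of_DKO, 17 of the 44 Hox probes were at least 4-fold higher on DKO and 0 were at least 4-fold lower. Over all 29192 probes compared, 3.83% were at least 4-fold higher and 3.87% at least 4-fold lower. A probe was compared where either array had it above background, which held for 31 Hox probes, and 22 of these were compared only through the DKO array and could not come out lower. Of the 9 above background on both arrays, 8 read higher and 1 lower on DKO, and 4 were at least 4-fold higher. The median log2 ratio over the 28 Hox probes with a ratio was 3.26, but 19 of these ratios are limits that could only lie above 0, and over the probes above background on both arrays the median was 1.01. Just inside the 4-fold line stood Hoxd4, at least 5.37-fold, and just outside stood Hoxd9, at least 3.96-fold. Against each of the other 3 arrays in turn, 16 Hox probes of 15 genes were at least 4-fold higher on DKO, beside 2.54% of the probes compared in all 3 pairs.

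**Figure D2:**
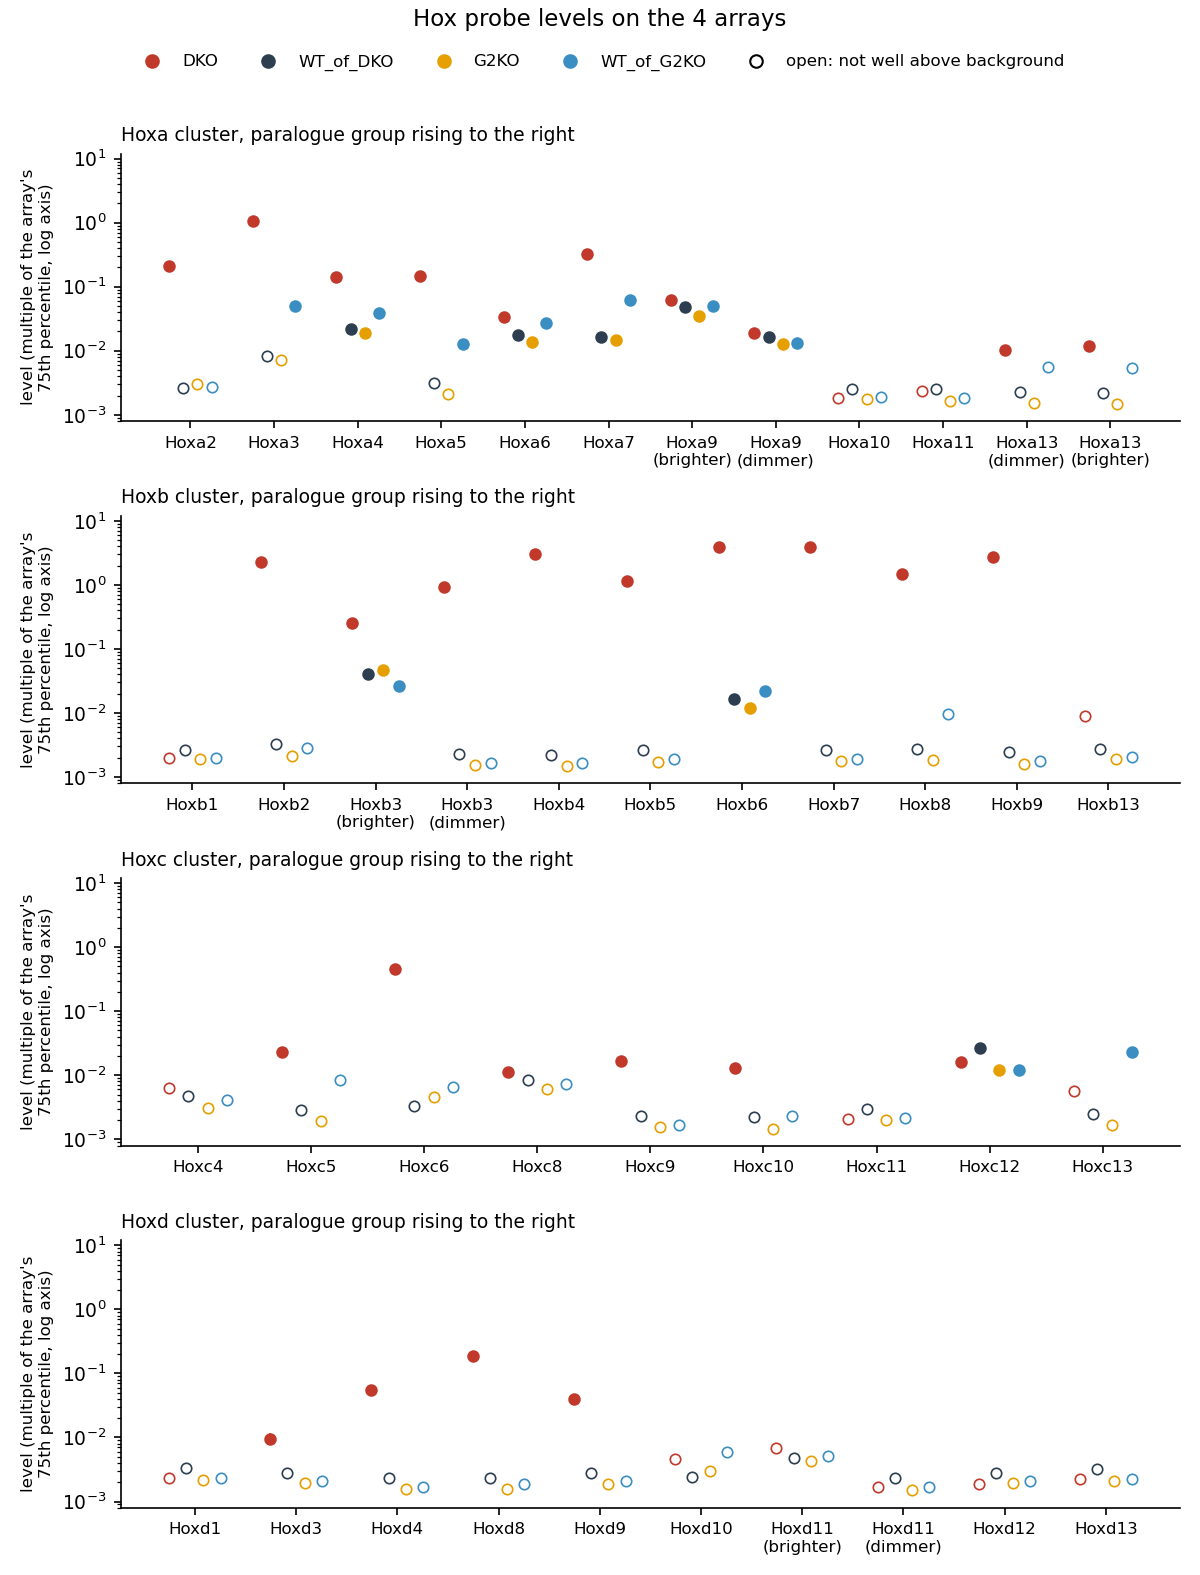
Levels of the Hox probes (vertical axis, multiple of the array's 75th percentile, log axis) by gene within each cluster on the 4 arrays, with Agilent error bars that are mostly smaller than the points; open points were not well above background, and genes with 2 probes are marked brighter and dimmer. In the Hoxb panel the DKO points from Hoxb2 to Hoxb9 lie between 0.255 and 3.92 and all other points lie at or under 0.0473.

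The Hoxb cluster showed the broadest difference. Its 8 genes from Hoxb2 to Hoxb9 were all above background on DKO and all at least 4-fold higher than on each other array, while the genes at both ends, Hoxb1 and Hoxb13, were not well above background anywhere. The probes of Hoxb2 to Hoxb9 cover 77.4 kb of chromosome 11 (chr11:96137748-96215181 in mm9). The Hoxb1 probe, of a gene that patterns the hindbrain, starts 13.3 kb from that of Hoxb2, and the Hoxb13 probe, of a gene of the tail end of the body, starts 79.9 kb from that of Hoxb9.

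Hoxb6, a gene known from lateral plate mesoderm, was measured on all 4 arrays, as was Hoxb3 on 1 of its probes. Its level was 3.92 ± 0.392 on DKO, 0.0163 ± 0.00304 on WT_of_DKO, 0.0121 ± 0.00211 on G2KO and 0.0221 on WT_of_G2KO. The DKO value was 241-fold over WT_of_DKO, 177-fold over WT_of_G2KO and 324-fold over G2KO, whereas the other 3 arrays lay within 1.83-fold of each other. Hoxb4, a gene used to expand blood stem cells, was at 3.06 ± 0.306 on DKO and not well above background elsewhere. It was at least 427-fold higher than on WT_of_G2KO and at least 464-fold higher than on G2KO. Hoxb5 was at 1.16 ± 0.116 and Hoxb8, a gene of myeloid progenitors, at 1.46 ± 0.146 on DKO alone. These are at least 113-fold and at least 142-fold over WT_of_DKO. Hoxb2, Hoxb7 and Hoxb9 followed the same pattern, with DKO levels of 2.25, 3.90 and 2.68 and no other array well above background. So the 6 genes with a single probe and a DKO-only signal ran along the cluster on either side of Hoxb6 and were each at least 113-fold over WT_of_DKO.

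Hoxb3 had 2 probes that disagreed by more than 4-fold. The probe nearer to Hoxb2 was at 0.94 on DKO and dim on the other arrays, which makes it at least 91.7-fold higher than on WT_of_DKO. The other probe was above background on all 4 arrays, at 0.255 ± 0.0256 on DKO, 0.0403 on WT_of_DKO, 0.0473 on G2KO and 0.0266 on WT_of_G2KO, which is 6.34-fold over WT_of_DKO. Both probes were highest on DKO, and the size of the difference depends on the probe. The second probe lies in the homeobox, the stretch of the gene that codes for the DNA-binding homeodomain and that Hox genes share. Among the Hox probes, 3 of 44 held a homeobox motif (AAC, any base, G, any 2 bases, G, any base, ATGAA) on the strand as written, beside 7 of 39429 probes in all. Those of Hoxc11 and Hoxc12 are shown, with the motif in capitals, because both cover part of the conserved stretch:
Hoxc11, chr15:102787022-102787081, plus strand: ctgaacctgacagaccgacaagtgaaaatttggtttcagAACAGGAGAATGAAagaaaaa
Hoxc12, chr15:102768889-102768948, plus strand: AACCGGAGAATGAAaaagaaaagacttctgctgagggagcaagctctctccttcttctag
Aligned on the motif, these probes shared 18 of 21 bases. The first 14 of these are the motif, and its fixed bases matched because the probes were picked by them. The Hoxc12 probe was above background on all 4 arrays, as was the homeobox probe of Hoxb3, and the Hoxc11 probe on none.

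In the Hoxa cluster, on chromosome 6, the DKO signal was high from Hoxa2 to Hoxa7 with Hoxa6 as an exception, and Hoxa9 was under 4-fold. Hoxa2, which sets the identity of the second pharyngeal arch, was at 0.21 ± 0.0211 on DKO and dim on the other 3 arrays, at least 20.5-fold over WT_of_DKO. Hoxa3, a gene needed for thymus and parathyroid, was at 1.05 ± 0.105 on DKO and 0.0505 on WT_of_G2KO, and was not well above background on WT_of_DKO and G2KO. Its fold over WT_of_DKO was at least 103. Hoxa5, which acts in lung and skeleton, was at 0.144 ± 0.0146 on DKO and 0.0129 ± 0.00255 on WT_of_G2KO, and its fold over WT_of_DKO was at least 14.1. These 3 genes had no signal well above background on WT_of_DKO.

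Hoxa4 was at 0.14 ± 0.0141 on DKO, 0.0216 on WT_of_DKO, 0.0192 on G2KO and 0.0384 on WT_of_G2KO, a fold of 6.49 over WT_of_DKO. Hoxa7 was at 0.327 ± 0.0328 on DKO, 0.0162 ± 0.00313 on WT_of_DKO, 0.0147 ± 0.00232 on G2KO and 0.0628 on WT_of_G2KO, a fold of 20.3 over WT_of_DKO. Both genes were highest on DKO, next on WT_of_G2KO, and within 1.12-fold on the other 2 arrays. Hoxa6 and Hoxa9, also above background on all 4 arrays, stayed under 4-fold. Hoxa6 was at 0.0331 ± 0.00369, 0.0174 ± 0.00285, 0.0137 and 0.0266 on DKO, WT_of_DKO, G2KO and WT_of_G2KO, 1.91-fold over WT_of_DKO. Hoxa9, a gene of blood progenitors, was at 0.0621 ± 0.00642, 0.0476, 0.0352 and 0.0498 in the same order, 1.3-fold over WT_of_DKO on 1 probe and 1.16-fold on the other. The log2 ratio of Hoxa9 lay within 2 times its Agilent error on both probes, so Hoxa9 did not differ beyond the error of its spots between DKO and WT_of_DKO. Hoxa13, a gene of digits and the genital tubercle, was at 0.0102 and 0.012 on DKO on its 2 probes, close to the lowest level above background there, 0.0073, so its limit of at least 1.17-fold over WT_of_DKO leaves its fold unknown.

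The Hoxc and Hoxd clusters were almost silent outside the DKO array. In Hoxc, on chromosome 15, Hoxc6 was at 0.459 ± 0.046 on DKO alone, at least 44.8-fold over WT_of_DKO. Hoxc5, Hoxc8, Hoxc9 and Hoxc10, genes of the trunk, were also above background on DKO alone but at low levels of 0.023, 0.0114, 0.0166 and 0.0131, and their limits were at least 1.11-fold to at least 2.25-fold over WT_of_DKO. Hoxc12 was low on all 4 arrays, at 0.0159 ± 0.00249 on DKO, 0.0268 on WT_of_DKO, 0.0119 ± 0.00209 on G2KO and 0.0123 ± 0.00222 on WT_of_G2KO. It was the only Hox gene with a ratio below 1 on DKO against WT_of_DKO, 1.68-fold lower, and it was highest on WT_of_DKO. Hoxc13, a gene of hair and nails, was at 0.0227 on WT_of_G2KO and not well above background on the other 3. In Hoxd, on chromosome 2, no probe was above background outside the DKO array. On DKO, Hoxd8 was at 0.188 ± 0.0189, Hoxd4 at 0.0551 ± 0.00577, Hoxd9 at 0.0406 ± 0.00449 and Hoxd3 at 0.00959 ± 0.00206. Hoxd8 was at least 18.3-fold higher than on WT_of_DKO, and Hoxd3 had no ratio because its DKO level lay under the lowest level above background on WT_of_DKO, 0.0102. Hoxd1 and the 4 genes from Hoxd10 to Hoxd13, which pattern the limb, were not well above background on any array.

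Counts also differed between paralogue groups. On DKO, genes above background numbered 2 of 2 in group 2, 3 of 3 in group 3, 3 of 4 in group 4, and all 3, 3, 2, 3 and 4 genes in groups 5, 6, 7, 8 and 9. In groups 10, 11, 12 and 13 they numbered 1 of 3, 0 of 3, 1 of 2 and 1 of 4. Split at those places after the values were seen, groups 2 to 9 held 23 of 24 genes above background on DKO and groups 1 and 10 to 13 held 4 of 15. On WT_of_DKO the same sets held 6 of 24 and 2 of 15. The share of all probes above background was 72.2% on DKO and 65% on WT_of_DKO. By the 3 usual classes, at least 4-fold higher on DKO than on WT_of_DKO were 5 of 8 probes compared in groups 1 to 3, 11 of 14 in groups 4 to 8 and 1 of 9, Hoxb9, in groups 9 to 13, where the share over all probes compared was 3.83%. Not compared were 2 probes in the first class, 1 in the second and 10 in the last. By cluster the counts were 5 of 12 probes compared in Hoxa, 9 of 9 in Hoxb, 1 of 6 in Hoxc and 2 of 4 in Hoxd. Most probes were compared only through the DKO array.

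Paralogues of the same group could differ where a measured fold stood beside a measured fold or a high limit. In group 6, Hoxb6 and Hoxc6 were higher than on WT_of_DKO by 241-fold and at least 44.8-fold, whereas Hoxa6 was higher by 1.91-fold. In group 9, Hoxb9 was at least 261-fold higher, whereas Hoxa9 was 1.3-fold higher. Hoxc9 and Hoxd9 have only low limits, which do not place them.

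**Figure D3:**
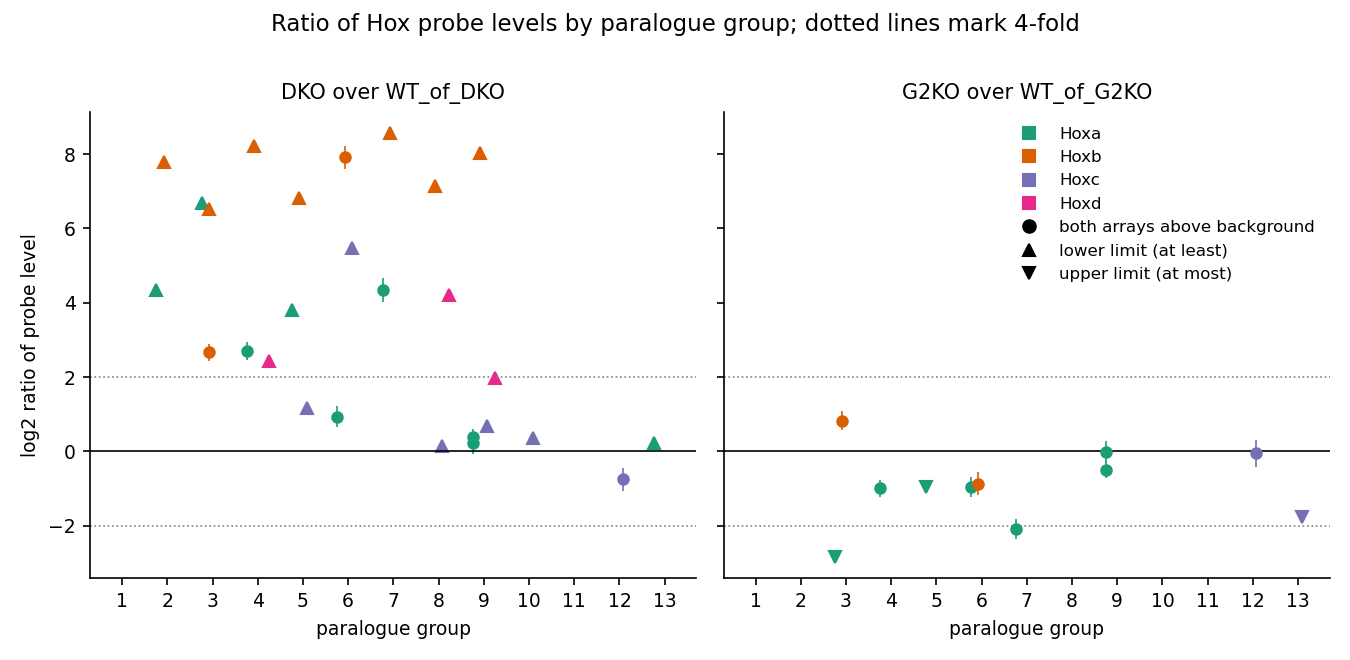
Log2 ratio of Hox probes with a ratio (vertical axis) by paralogue group (horizontal axis), coloured by cluster, for DKO over WT_of_DKO and for G2KO over WT_of_G2KO; circles are measured with Agilent error bars, triangles are limits and dotted lines mark 4-fold. On the left 17 probes lie above the upper line, all in groups 2 to 9; on the right 2 lie below the lower line and 0 above the upper.

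Probes just outside the clusters were under 4-fold between DKO and WT_of_DKO. Within 200 kb of the outermost Hox probes stood 33 probes for other genes or transcripts. Of these, 23 were compared between DKO and WT_of_DKO. At least 4-fold higher or lower on DKO were 0, beside 3.83% and 3.87% of all probes compared. The 22 flanking probes with a ratio ran from -0.57 to 0.66 on the log2 scale. Ttll6, the nearest named gene to the Hoxb13 end of Hoxb, read 0.0515 on DKO and 0.0413 on WT_of_DKO on its brighter probe, and Snf8, a sorting protein gene further out, read 12.7 and 8.65. Lnpk and Mtx2, on either side of Hoxd, read 0.228 and 4.35 on DKO and 0.191 and 3.66 on WT_of_DKO. Cbx5 and Smug1, beyond Hoxc, and Calcoco2 and Ube2z, beyond Hoxb, were also under 2-fold. Over all probes compared, 1.91% were at least 4-fold lower on G2KO than on WT_of_G2KO, and 2.6% higher on WT_of_G2KO than on WT_of_DKO. In these comparisons, each with 21 flanking probes compared, 1 flanking transcript passed 4-fold. It lies 15.6 kb outside Hoxd and was at 0.357 on DKO, 0.369 on WT_of_DKO, 0.388 on G2KO and 1.65 on WT_of_G2KO, which is 4.26-fold lower on G2KO than on WT_of_G2KO and 4.48-fold higher on WT_of_G2KO than on WT_of_DKO. The even-skipped genes Evx1 and Evx2, homeobox genes that flank Hoxa and Hoxd on the group 13 side, were not well above background on any array. The Evx2 probe lies 15.1 kb outside Hoxd, next to the probe of that flanking transcript and on the same strand. Whether the 2 probes read the same gene was not tested.

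Inside the clusters, 17 probes carry names that are not those of Hox genes. Of these, 13 were compared between DKO and WT_of_DKO and 12 had a ratio, 7 of them limits through the DKO array that could not come out lower. At least 4-fold higher were 3, and 0 were lower, where 3.83% and 3.87% of all probes compared were higher and lower. AI448005 lies between Hoxd4 and Hoxd3, on the strand of the Hoxd genes. It was at 0.114 on DKO and not well above background elsewhere, at least 11.1-fold. Whether this probe, or others of the 17, reads part of a Hox transcript was not tested. A transcript on the strand opposite to Hoxb4 and Hoxb3 was at 0.0587 on DKO alone, at least 5.73-fold. A transcript whose probe overlaps that of Hoxa3 on the opposite strand was measured on all 4 arrays, at 0.228 on DKO, 0.0354 on WT_of_DKO, 0.0284 on G2KO and 0.0143 on WT_of_G2KO, 6.44-fold over WT_of_DKO. Unlike Hoxa3, it was lowest on WT_of_G2KO. The listed noncoding RNAs Hoxb5os, Hoxd3os1 and Hoxaas3 were above background on DKO alone, at 0.0292, 0.0236 and 0.0194, with limits of at least 2.85-fold, 2.3-fold and 1.89-fold. Hoxa11os, from the opposite strand of Hoxa11, was at 0.0588 on DKO, 0.0562 on WT_of_DKO, 0.047 on G2KO and 0.078 on WT_of_G2KO, although the Hoxa11 probe was not well above background on any array.

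**Figure D4:**
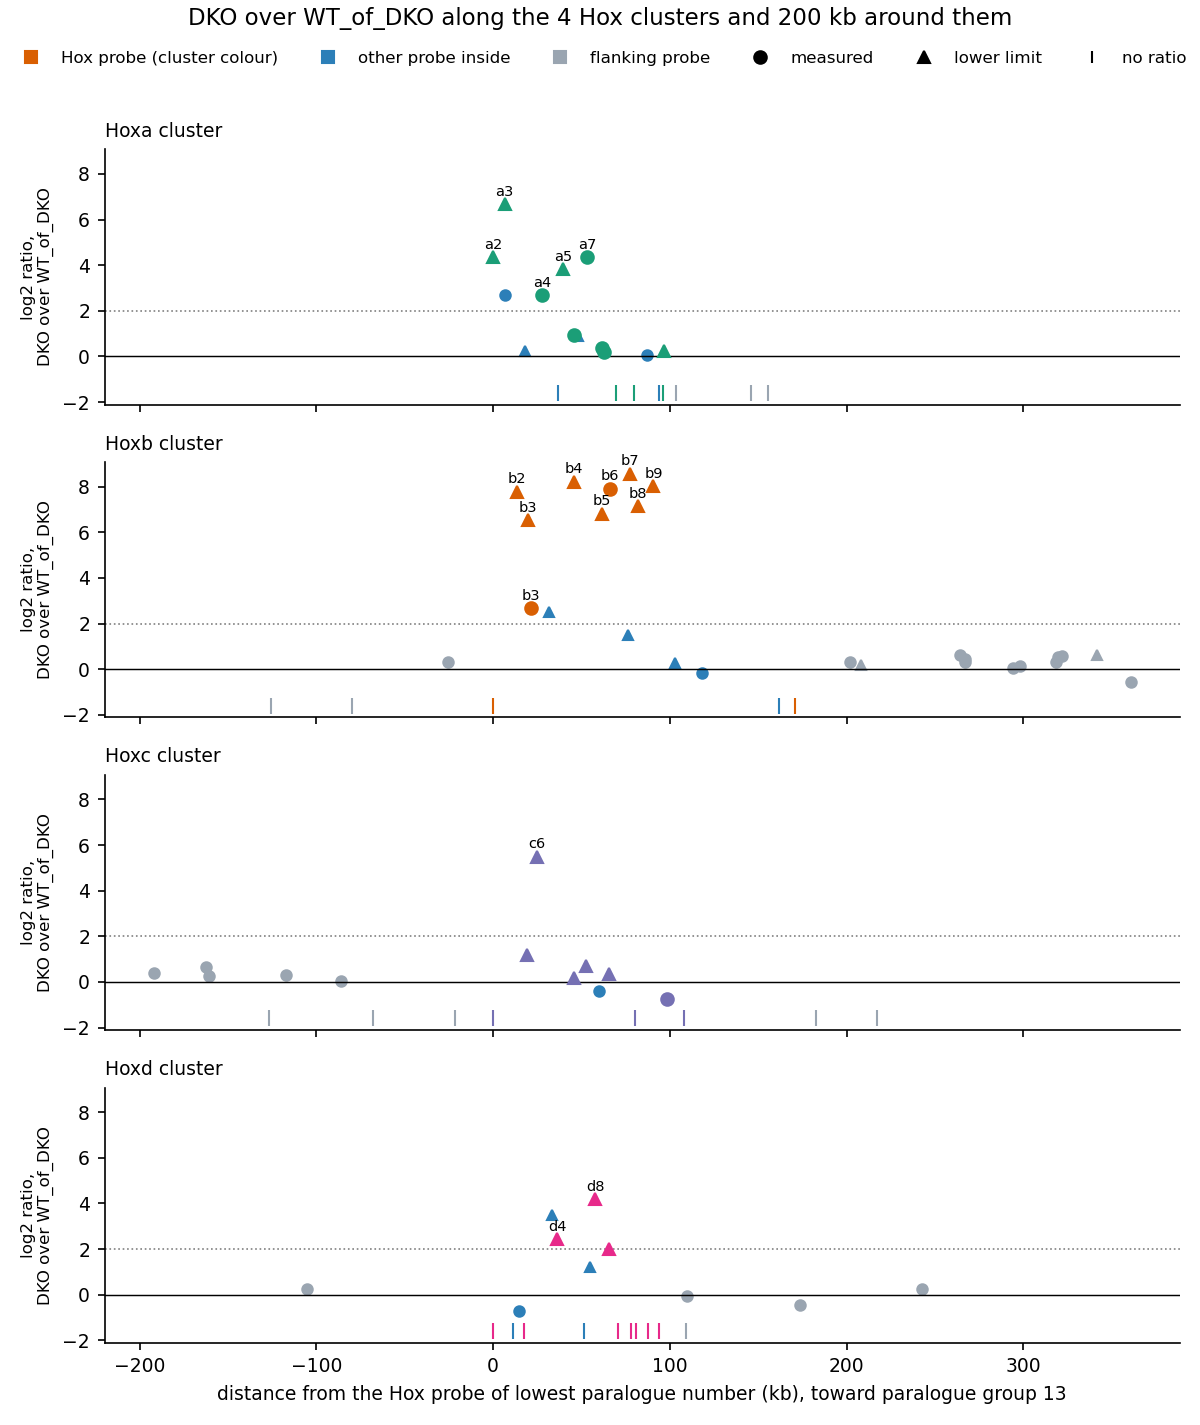
Log2 ratio of DKO over WT_of_DKO (vertical axis) against the distance along each cluster in kb from the Hox probe of lowest paralogue number shown (horizontal axis), for Hox probes, other probes inside the clusters and probes up to 200 kb outside; triangles are lower limits, ticks at the bottom of a panel have no ratio and stand at no value, and the dotted line marks 4-fold. The 33 flanking probes show no ratio past 0.66, and the labelled Hox probes rise above 2.

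In the comparison labelled G2KO, few Hox probes were bright enough to compare, and most of them read lower on the array labelled G2KO. Of the 44 probes, 12 were compared, 0 were at least 4-fold higher and 2 were at least 4-fold lower on G2KO than on WT_of_G2KO, beside 3.58% and 1.91% of all probes compared. The median log2 ratio was -0.92 over the 12 Hox probes and -0.16 over all probes. Of the 12, the 3 probes of Hoxa3, Hoxa5 and Hoxc13 were compared only through WT_of_G2KO. Their ratios are limits that could only lie below 0. The 2 at least 4-fold lower were Hoxa3, at least 7.14-fold lower, and Hoxa7, 4.26-fold lower. Neighbouring Hoxa genes read lower too, Hoxa4 by 1.99-fold, Hoxa5 by at least 1.95-fold and Hoxa6 by 1.95-fold. Hoxb3, on its homeobox probe, read 1.77-fold higher. No Hoxd probe was above background on either array, and Hoxb and Hoxc had 2 compared probes each.

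The arrays labelled WT were compared at the same Hoxa genes. Hoxa3 was at least 4.93-fold higher on WT_of_G2KO than on WT_of_DKO, Hoxa7 was 3.89-fold, Hoxa4 was 1.78-fold and Hoxa6 was 1.54-fold higher. Of the 12 Hox probes compared, 1 was at least 4-fold higher and 0 at least 4-fold lower, beside 2.6% and 4.48% of all probes compared. That probe, of Hoxa3, was compared only through WT_of_G2KO, as were those of Hoxa5 and Hoxc13. These 3 could not come out lower. G2KO and WT_of_DKO lay closest, with no Hox probe past 2.26-fold in either direction among the 9 compared, where 0.817% and 1.31% of all probes compared were at least 4-fold higher and lower on G2KO. For Hoxa3, Hoxa4, Hoxa6 and Hoxa7 the order was therefore DKO, then WT_of_G2KO, then WT_of_DKO and G2KO. The last 2 arrays did not differ beyond 2 times the Agilent error for Hoxa4, Hoxa6 and Hoxa7. Hoxa5 was also highest on DKO. Its level on WT_of_G2KO, 0.0129 ± 0.00255, stood near the lowest level above background on WT_of_DKO, 0.0102. The limit of at least 1.26-fold between these WT arrays therefore does not place them for Hoxa5. For Hoxa6 the step from DKO to WT_of_G2KO, 1.24-fold, was also within 2 times that error.

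The promoters of the Hox genes were read for features that the choice of genes did not use. RefSeq promoter windows on GRCm38.p6, from 250 bases before to 50 bases after a start, were given for 22 of the 39 genes, with 24 windows. The Hox windows held a median of 14.5 CG dinucleotides, from 4 to 45, beside a median of 7 over all 32851 windows. The median was 14 for the 13 windows of genes above background on DKO and 15 for the 11 of genes that were not. The TATA box TATAAA was found on either strand in 16.7% of Hox windows and 13.6% of all windows, and the Pbx-Hox site TGATNNAT in 16.7% and 8.85%. Hoxb4 and Hoxb8 are shown as genes of the same cluster with a DKO-only signal, and Hoxd13 as a gene that was not well above background anywhere. The 250 bases before each start are given with CG in capitals:
Hoxb4, chr11:96318017-96318266, plus strand: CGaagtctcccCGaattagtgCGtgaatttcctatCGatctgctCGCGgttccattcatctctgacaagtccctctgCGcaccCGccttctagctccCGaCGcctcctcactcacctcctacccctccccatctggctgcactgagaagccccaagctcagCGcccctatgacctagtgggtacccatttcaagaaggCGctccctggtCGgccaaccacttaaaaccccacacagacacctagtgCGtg
Hoxb8, chr11:96281655-96281904, plus strand: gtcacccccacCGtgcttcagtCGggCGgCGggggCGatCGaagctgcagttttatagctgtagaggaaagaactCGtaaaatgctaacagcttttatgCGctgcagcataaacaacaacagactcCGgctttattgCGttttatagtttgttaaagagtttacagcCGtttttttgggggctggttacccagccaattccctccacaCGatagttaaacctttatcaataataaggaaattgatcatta
Hoxd13, chr2:74667975-74668224, plus strand: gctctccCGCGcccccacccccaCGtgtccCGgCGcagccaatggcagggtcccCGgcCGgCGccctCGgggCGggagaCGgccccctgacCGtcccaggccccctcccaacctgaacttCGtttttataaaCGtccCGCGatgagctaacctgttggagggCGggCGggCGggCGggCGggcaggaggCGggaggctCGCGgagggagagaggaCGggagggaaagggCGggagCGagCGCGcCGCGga
The 3 stretches held 14, 12 and 31 CG dinucleotides. The windows of Hoxb8 and Hoxd13 held TATAAA on one strand or the other, and that of Hoxb8 also held TGATNNAT.

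Partners of the Hox proteins were measured on every array. All 9 listed cofactors of the Pbx, Meis and Pknox families were above background on all 4 arrays. Their median log2 ratio for DKO over WT_of_DKO was -0.14, beside 0.03 over all probes. On DKO 1 was at least 4-fold higher and 0 lower, beside 3.83% and 3.87% of all probes compared. That gene was Pbx4, at 0.132 on DKO, 0.0203 on WT_of_DKO, 0.0196 on G2KO and 0.0264 on WT_of_G2KO, 6.52-fold over WT_of_DKO. Meis1, a cofactor of posterior Hox proteins, went the other way at 0.629, 2.44, 2.27 and 4.59 in the same order, 3.87-fold lower on DKO. In the comparison labelled G2KO, 0 of the 9 were past 4-fold either way, beside 3.58% higher and 1.91% lower over all probes compared.

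Of 20 listed regulators of Hox clusters, 19 had a ratio between DKO and WT_of_DKO, with a median log2 ratio of -0.37 beside 0.03 over all probes. On DKO 0 were at least 4-fold higher and 1 was at least 4-fold lower, beside 3.83% and 3.87% of all probes compared. The count of lower genes was thus near the share over all probes. The gene that was lower was Egr2, the hindbrain factor Krox20, at 0.0623 on DKO, 0.586 on WT_of_DKO, 1.36 on G2KO and 0.955 on WT_of_G2KO, 9.4-fold. Cdx2, a caudal-type factor that acts on central Hox genes, was above background on DKO alone, at 0.0213, at least 2.08-fold over WT_of_DKO. The polycomb genes Ezh2, Eed, Suz12, Bmi1, Ring1, Rnf2 and Cbx2 were above background on all 4 arrays, and their log2 ratios ran from -0.86 for Rnf2 to 0.96 for Ring1. The trithorax-type genes Kmt2a and Men1 differed by 1.18-fold and 1.01-fold. In the comparison labelled G2KO, 0 regulators were past 4-fold either way, beside 3.58% higher and 1.91% lower over all probes compared.

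Markers of other cell types also differed between DKO and the other arrays. All 12 listed mesothelial markers were above background on DKO, and 11 were at least 4-fold higher and 0 lower than on WT_of_DKO. Over all probes compared, 3.83% were higher and 3.87% lower by that much. Only 4 of the markers were above background on WT_of_DKO, and the others could not come out lower. Those 4 were Msln, Krt19, Bnc1 and Krt7, higher on DKO by 204-fold, 19.9-fold, 18.7-fold and 2.47-fold. The summed level of the list was 150 on DKO and ran from 0.704 to 1.73 on the other 3 arrays. Such a sum adds levels of different probes, and Msln and Krt18 made up 100.2 and 24.7 of it on DKO. Wt1, Upk3b, Upk1b, Lrrn4 and Gpm6a were not well above background on any of those 3. Of 8 markers of limb and trunk mesenchyme, 4 were at least 4-fold higher and 0 lower, with a summed level of 12.6 on DKO and 1.41 to 1.91 elsewhere. Of the 4, Tbx5 and Gata6 were not well above background on WT_of_DKO and could not come out lower. Gata4 and Gata6 made up 5.04 and 4.90 of the sum on DKO. Gata4, a heart and trunk factor, was at 5.04 on DKO and 0.014 on WT_of_DKO, while the hindlimb genes Tbx4 and Pitx1 were not well above background on either. Of 12 markers of craniofacial mesenchyme, which in the embryo is largely without Hox transcripts, 6 were at least 4-fold lower and 1 higher on DKO, with a summed level of 3.87 on DKO, 9.18 on WT_of_DKO, 6.66 on G2KO and 5 on WT_of_G2KO. Of the 6, Alx1, Dlx5, Tfap2a and Tfap2b were not well above background on DKO and could not come out higher. The array labelled WT_of_G2KO had the same counts against WT_of_DKO, 6 at least 4-fold lower and 1 higher. Over all probes compared in that pair, 4.48% were lower and 2.6% higher by that much. Of those 6, Alx1, Tfap2b and Six2 were not well above background on WT_of_G2KO and could not come out higher. Alx1 was at 2.12 on WT_of_DKO and 1.33 on G2KO and not well above background on DKO and WT_of_G2KO.

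All 13 fibroblast markers were above background on DKO. At least 4-fold lower than on WT_of_DKO were 4 and higher was 1, beside 3.87% and 3.83% of all probes compared. Postn was 186-fold, Pdgfra 176-fold, Thy1 18-fold and Pdgfrb 13.1-fold lower on DKO, and Dcn was 16.6-fold higher. Vim and Col1a2 read 60.5 and 142 on DKO and 62.5 and 169 on WT_of_DKO. On WT_of_G2KO, 8 of the 13 were at least 4-fold lower than on WT_of_DKO and 0 higher, beside 4.48% and 2.6% of all probes. Among 10 neural progenitor markers, Sox2 and En2 were at 2.37 and 14.8 on WT_of_G2KO, and En2 was at 0.0424 on DKO with Sox2 not well above background there. The summed level of that list was 48 on WT_of_G2KO and ran from 1.54 to 5.42 on the other arrays. Nes and En2 made up 28.0 and 14.8 of the sum on WT_of_G2KO, and Foxa2 made up 3.58 of the 5.42 on DKO. The 5 endothelial and the 5 macrophage markers had 0 past 4-fold, with Tie1 and Aif1 not well above background on any array. The part of any of these cell types in the Hox values was not tested.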

How the data were processed

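Total RNA of 4 MEF cultures was measured on Agilent arrays of 1 slide with a single dye, Cy3. The deposited intensity values are the background-subtracted processed signals that the authors extracted with Agilent Feature Extraction (10.7.3.1 per the file headers, 10.5.1.1 per the submitters' processing notes), with no scaling between arrays. The deposited value table holds the same intensities, with a largest difference of 0, and was used unscaled as an alternative. Control and outlier spots were left out, spots of a probe were averaged on the log2 scale, and each array was divided by its 75th percentile of signal (Python 3.11.15, pandas 2.3.3). A ratio needed 1 of 2 arrays to be well above background. Every Hox gene was a member and entered the counts, but 1 gene and 1 probe sequence are not reported here. Those past 4-fold, or above background on all 4 arrays, were given in full. The members and lists were chosen with earlier results of these data known. Other genes came from lists or from positions within 200 kb (mm9). The ratio code was run on simulated data, with both simulated arrays made from the WT_of_DKO levels. In it 200 bright probes were changed by 3 on the log2 scale, with noise of SD 0.1. All 200 were recovered, with 0 false calls among 39425 probes. The SD of the log2 ratio between the real DKO and WT_of_DKO arrays was 1.05. The simulation therefore checks the code and gives no rate of false calls in these data. Alternatives covered the scaling, the floor, the filter, the threshold, the control array and limma 3.58.1 (R 4.3.3) normexp correction with an offset of 50 and quantile normalization. The number of arrays limits the precision.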

Additional observations from a re-analysis of the deposited data

Results flagged for a closer look

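Hoxa3 and Hoxa7 lay on opposite sides in the DKO comparison and in the comparison labelled G2KO. The log2 ratio of Hoxa3 was 6.68 for DKO over WT_of_DKO, as a lower limit, and -2.84 for G2KO over WT_of_G2KO, as a limit in the other direction. The log2 ratio of Hoxa7 was 4.34 for DKO over WT_of_DKO and -2.09 for G2KO over WT_of_G2KO. The difference between the comparisons was not tested, because each genotype has 1 array, and the directions of the second comparison would turn if its labels were exchanged.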

How the results depend on the processing

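No paired analysis was possible because each genotype has 1 array and the labels carry no replicate numbers, and no replicate could be left out. The 17 Hox probes at least 4-fold higher on DKO fell to 4 when both arrays had to be well above background, since fewer probes are then compared. The DKO median log2 ratio of 3.26 became 1.69 with normexp, 4.10 with quantile normalization, 2.71 with scaling to the median, 3.87 without the floor, 1.01 with both arrays above background, 0.93 without a filter, 2.44 against the other WT array and 2.68 against the mean of both WT arrays. For G2KO over WT_of_G2KO, the count of higher probes rose from 0 to 1 at 2-fold. The 2 lower probes became 0 with normexp, against the other WT array, against the mean of both and at 10-fold, 1 without scaling, with the deposited table or with both arrays above background, and 4 without the floor. Its median of -0.92 became -0.48 with normexp, -0.42 without scaling and with the deposited table, -0.50 with both above background, -0.12 without a filter, -0.33 against the other WT array and -0.63 against the mean. Between the WT arrays, the 1 higher probe became 0 with normexp, with both above background and at 10-fold, 2 with quantile normalization or scaling to the median, and 3 without the floor or at 2-fold, where 1 was lower. Its median of 0.39 became 0.065 with both above background and turned to -0.52 without a filter, which sets probes dim on both arrays at the ratio of the floors. The weaker background flag gave 15, 17 and 26 Hox probes on WT_of_DKO, G2KO and WT_of_G2KO. Signs turned for the dimmer Hoxa9 probe in DKO over WT_of_DKO (-0.019, quantile), for that probe and Hoxc12 in G2KO over WT_of_G2KO (0.10 and 0.074 with quantile, 0.49 and 0.45 without scaling or with the deposited table), and for the brighter Hoxa9 probe between the WT arrays (-0.18, without scaling or with the deposited table). Omitting the scaling moved the median over all probes from -0.16 to 0.34 for G2KO over WT_of_G2KO, and the share of higher among its 4-fold calls from 65.1% to 81.0%. Between the WT arrays that median was 0.08, and it was -0.17 without scaling and 0.26 with scaling to the median. Where no value shows the cause of a change, the cause was not tested.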
